A study of Mus musculus with 10 samples.

Results

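The genes described are the 13 protein genes of mouse mitochondrial DNA (mtDNA) and 25 nuclear genes whose products copy, transcribe, cut, stabilise or degrade mitochondrial nucleic acids. They were taken by name, 38 in all, from the 27179 genes of a liver count table, and each was matched to its NCBI Gene number. All 38 passed the filter on low counts and were among the 15226 genes tested. Whole liver came from male C57BL/6 mice with floxed alleles of Lpcat3 (Lpcat3 f/f) that had eaten a diet labelled NASH (nonalcoholic steatohepatitis) diet for 12 weeks. The 5 control mice carried the floxed alleles alone, and the 5 LKO mice also carried Albumin-Cre, a Cre recombinase whose promoter is active in hepatocytes. Lpcat3 encodes an acyltransferase that places polyunsaturated fatty acids into membrane phospholipids. Every mouse had the floxed alleles and the diet, so the effect of the diet could not be compared, and deletion of Lpcat3 and presence of Cre cannot be told apart. Each mouse gave 1 library.

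Mitochondrial DNA is a small circle that encodes subunits of the respiratory chain and of ATP synthase, together with the ribosomal and transfer RNAs needed to translate them. Both strands are transcribed as long precursors by a dedicated polymerase, and transfer RNAs lying between the coding regions are cut out to release the messengers, which then receive short poly(A) tails. All proteins that carry out these steps are encoded in the nucleus and imported. Hepatocytes are rich in mitochondria, and mtDNA transcripts are among the most abundant RNAs of the liver.

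The libraries held 26914124 to 46727182 counts. Lpcat3 lay between 25.5 and 38.5 counts per 1e6 counts (CPM) in LKO and between 94.1 and 123.9 CPM in control, with no overlap. Hepatocyte markers were present throughout, with no member at 0 (15 genes, summed level 71325 to 112500 CPM in control against 61497 to 87101 CPM in LKO). Control 4 was placed inside the LKO range by the first principal component of all genes, at 30.2 where LKO ran from -8.03 to 82.3 and the remaining controls from -52.7 to -30.1. The titles also hold unexplained codes, of which A54 alone is shared by both groups (control 1, LKO 1 and LKO 2). CPM values are scaled by the trimmed mean of M-values (TMM), which lines up the bulk of genes. This choice matters here, because all genes together had a median log2 fold change of -0.0036 with TMM and 0.235 with scaling to total counts.

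Several of the 13 genes differ in how their reading frames end or overlap, and some of these stretches are shown. They are messenger strand sequences from GENCODE M21, printed as DNA, and no coordinates are given because the table was built on GRCm39. In ND4, COX3 and CYTB the frame stops at a lone T, so that the stop codon exists only once a poly(A) tail has been added, while ND6 ends in a full stop codon. Their last 30 bases follow, with the final stop codon or its encoded part in capitals.
ND4: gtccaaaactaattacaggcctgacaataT
COX3: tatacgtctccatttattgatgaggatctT
CYTB: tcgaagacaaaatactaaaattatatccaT
ND6: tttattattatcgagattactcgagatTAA

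ATP8 and ATP6 share 43 bases, in which the start codon of ATP6 and the stop codon of ATP8 are in capitals. ND4L and ND4 share 7 bases in the same way. Reads that fall only on such a shared stretch cannot be given to one gene, and the rule by which the authors counted them is not known here.
ATP8 with ATP6: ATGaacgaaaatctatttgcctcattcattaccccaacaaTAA

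ND6 is the one protein gene read from the other (light) strand, and its messenger has a different base composition. G made up 28.1% of its bases against 5.88% (ATP8) to 16.1% (COX1) in the other 12, and C made up 5.97% against 22.1% (ND3) or more. The stretch of 60 bases with the most G holds 28 in ND6 (bases 368 to 427 of the messenger), 19 in ND5 (bases 423 to 482) and COX1, 17 in ND1, 13 in ND4 (bases 1029 to 1088) and 6 in ATP8, the fewest. Besides ND6, such stretches of ND1, ND2, ND5, COX1 and CYTB hold a run of at least 3 G. These runs are in capitals, because the protein GRSF1 binds G-rich RNA.
ND6: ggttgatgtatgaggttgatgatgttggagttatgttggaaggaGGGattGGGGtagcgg
ND5: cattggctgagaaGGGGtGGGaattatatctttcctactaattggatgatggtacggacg
ND4: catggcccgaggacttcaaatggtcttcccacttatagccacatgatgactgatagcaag

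Levels of the 13 genes differed widely within every liver. Per kilobase of length, COX1, the catalytic subunit gene of cytochrome c oxidase, was the highest at 26022 ± 4775 CPM per kilobase in control and 20886 ± 4141 in LKO (SD, n = 5). The lowest was ND4L, a membrane subunit of complex I, at 923 ± 99.9 in control and 625 ± 177 in LKO, so that the control means of COX1 and ND4L differed 28.2-fold. In control the order below COX1 was COX2, CYTB, ATP6, COX3, ND1, ND4, ND2, ND5, ATP8, ND6, ND3 and ND4L. The neighbours COX2 and CYTB, CYTB and ATP6, COX3 and ND1, and ATP8 and ND6 stood closer than the larger of their SDs. In LKO the order was the same except that ND3 stood above ND6. Short genes such as ND4L (297 bases) and ATP8 (204 bases) hold few positions for a read of 101 bases, so their levels per length are less comparable with those of longer genes. ND4L shares a messenger with ND4, yet they stood at 923 and 4172 CPM per kilobase in control. ATP8 and ATP6, also of a shared messenger, stood at 2080 and 9873. The order and the 28.2-fold span are therefore not those of messenger amounts alone.

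**Figure D1:**
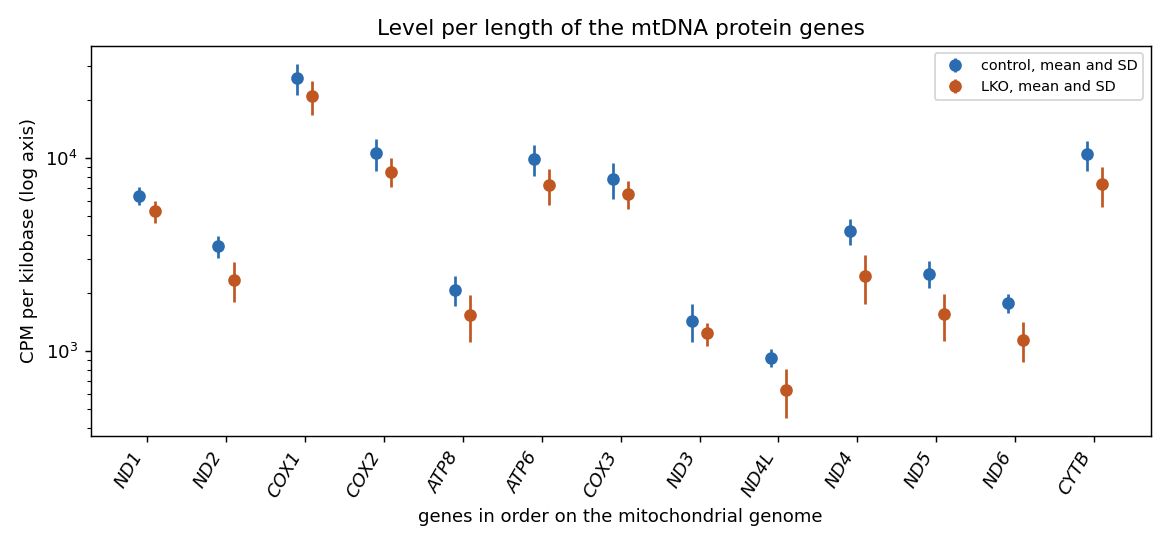
Mean level of each mtDNA protein gene in CPM per kilobase (log axis), in order along the mitochondrial genome, for 5 control (blue) and 5 LKO (orange) livers; bars are SD. COX1 is highest and ND4L lowest in both groups, and every LKO mean lies under its control mean at this scaling (with total counts ND3 is the exception).

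As shares of each library, the 13 genes took 8.50, 8.34, 9.66, 8.56 and 7.96% of all counts in controls 1 to 5. In LKO 1 to 5 they took 8.85, 7.72, 7.39, 7.56 and 7.03%. LKO 1 thus lay among the controls, and the other LKO libraries lay below every control. Group means were 8.60 ± 0.634% and 7.71 ± 0.685% (SD, n = 5). Scaled by TMM, the 13 genes summed to 74246 to 112961 CPM in control, with control 4 lowest, and to 57573 to 90292 CPM in LKO, with LKO 1 highest.

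The ribosomal RNAs of the mitochondrion, which are no members of the set, were lower in LKO as well. mt-Rnr2 (16S) had 45670 ± 5578 CPM in control against 31656 ± 3275 CPM in LKO, and its ranges did not overlap (39269 to 52427 and 28462 to 35667 CPM). The log2 difference was -0.53 (SE 0.23; edgeR adjusted p = 0.203). mt-Rnr1 (12S) stood at -0.67 (SE 0.19; edgeR adjusted p = 0.116). Ribosomal RNA had been depleted before library preparation, so these levels depend on the depletion too. Messenger counts per rRNA count were 1.74 ± 0.185 in control and 1.93 ± 0.230 in LKO, with overlapping ranges.

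**Figure D2:**
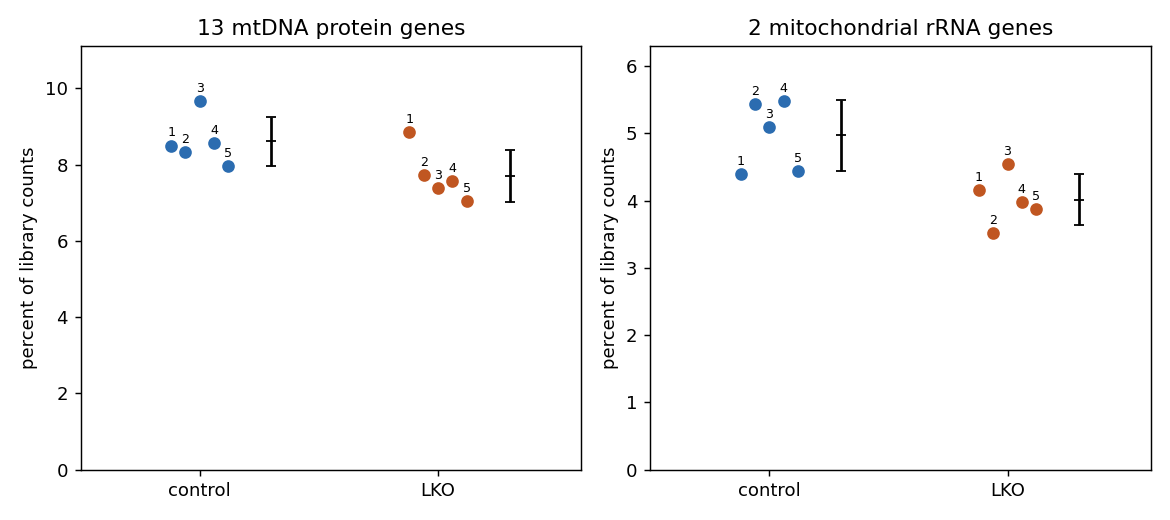
Percent of all counts in each library that fell on the 13 mtDNA protein genes (left) and on the mitochondrial rRNA genes mt-Rnr1 and mt-Rnr2 (right). Points are libraries, numbered by replicate, and black bars are mean and SD; LKO 1 (8.85%, left) is the only LKO library inside the control range for the protein genes.

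For the comparison of LKO with control, no gene of the 38 passed an adjusted p under 0.05 (edgeR quasi-likelihood test with Benjamini-Hochberg adjustment over 15226 genes). In that test 10 genes of the whole table passed, or 0.0657%, of which 0.0394% were lower and 0.0263% higher. Among the 38, 10 had an unadjusted p under 0.05 and all 10 were lower in LKO, which is 26.3% of the set, where 9.5% of all tested genes were lower at that level and 12.8% were higher. Of those 10, 7 were among the 13 mtDNA genes (53.8%) and 3 among the 25 nuclear genes (12.0%). The mtDNA share was above that of all genes, and the nuclear share was near it. The 13 mtDNA genes are read from shared precursors, so their p-values are not independent of each other. In none of the 38 genes were the ranges of both groups apart, where 2.23% of all genes were apart as lower. Without control 4, edgeR called 4 of the 38 as lower (ND4, ND6, Lrpprc and Fastkd1), where 4.75% of all genes were called as lower and 10.2% as higher. Without LKO 1 it called ND4L and ND6, where 0.331% were. DESeq2 called 6 of the 38 as lower (3.63% of all genes were, and 4.16% were higher) and limma voom called 10 (6.11%).

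The median log2 fold change was -0.45 over the 13 mtDNA genes and -0.14 over the 25 nuclear genes, against -0.0036 over all genes tested. With total counts these medians were -0.22, 0.0955 and 0.235. Relative to the median of all genes, the mtDNA genes therefore stood at -0.44 with TMM and at -0.45 with total counts, and the nuclear genes at -0.13 and -0.14. All 13 mtDNA genes had a negative fold change with TMM, as had 50.5% of all genes (49.5% positive). With total counts 12 of 13 were negative, ND3 being at 0.04, where 83.5% of all genes were positive and 16.5% negative. Within the A54 samples and with TMM, the mean of LKO 1 and LKO 2 was lower than control 1 for all 13 (median log2 difference -0.31, with 1 control and no test). The size of this difference depends on the scaling. As shares of all counts, the 13 genes took 8.50% in control 1, 8.85% in LKO 1 and 7.72% in LKO 2. Code A55 held controls only and A67 held LKO only. A fit with the title code as a covariate therefore takes its fold changes from this same contrast. With the title code as a covariate the median over the 13 was -0.31 and edgeR called 0 genes of the table at an adjusted p under 0.05 (760 at an unadjusted p under 0.05, 1 of them among the 38).

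Complex I, the NADH dehydrogenase that feeds electrons into the chain, takes 7 of its subunits from mtDNA, and the largest differences of the 13 were among them. ND4 had 6386, 6193, 6215, 5699 and 4252 CPM in controls 1 to 5 and 5061, 3155, 3202, 2616 and 2849.6 CPM in LKO 1 to 5. All LKO libraries but LKO 1 lay below every control. Its log2 fold change was -0.77 (SE 0.21; edgeR adjusted p = 0.112), or 1.7-fold lower. Without control 4 the log2 fold change stayed at -0.77. The edgeR adjusted p was then 0.0434, in a fit that called 2296 genes of the table, against 10 with all libraries. ND5, the large subunit at the far end of the proton-pumping arm, had 4872, 5314, 4736, 4611 and 3376 CPM in control. In LKO it had 4110.3, 2568, 2819, 2069.8 and 2555 CPM. The log2 fold change of ND5 was -0.70 (SE 0.21; edgeR adjusted p = 0.126), and again only LKO 1 reached into the control range.

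ND2, another subunit of the membrane arm, had 3789.8, 3712, 4081, 3689 and 2839.9 CPM in control against 3364, 2233, 2529, 2052 and 1981 CPM in LKO. It stood at -0.58 (SE 0.18; edgeR adjusted p = 0.137). ND4L, read from the same messenger as ND4, ran from 227 to 306 CPM in control against from 152 to 277 CPM in LKO, with a log2 fold change of -0.56 (SE 0.17; edgeR adjusted p = 0.126). Without LKO 1 it was -0.75, and the adjusted p was 0.0396. In ND2 and ND4L, as in ND4 and ND5, the overlap of the groups came from LKO 1 alone. The remaining complex I genes of the same strand were closer to control, ND1 at -0.27 (5497 to 7206 and 4429 to 5976 CPM; -0.03 with total counts and -0.13 with the title code) and ND3 at -0.22 (311 to 608 and 357 to 512 CPM; 0.04 with total counts). The ND3 range in control reaches so low because of control 4, the lowest of all 10 libraries. Without control 4 ND3 stood at -0.35, and without control 3 at -0.14.

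ND6, the light strand gene, had the smallest p of the 38. Its levels were 978, 1037, 905, 921 and 754 CPM in controls 1 to 5. In LKO 1 to 5 they were 840, 550.2, 571, 512 and 494 CPM. LKO 1 alone lay within the control range, and the other LKO libraries lay below every control. The log2 fold change was -0.63 (SE 0.16; edgeR adjusted p = 0.104), and -0.40 with total counts. The edgeR adjusted p was 0.0371 without control 4, at an unchanged -0.63, and 0.0396 without LKO 1, at -0.79. ND6 counts were 0.807 to 1.26% of the summed counts of the 12 heavy strand genes in control and 0.675 to 1.0% in LKO, so the groups overlapped in this ratio. The strand setting used in counting is not known here. Whether ND6 counts hold light strand RNA alone can therefore not be told. ND6 and ND5 overlap tail to tail on opposite strands by 14 bases. ND5 counts were 4.96 ± 0.289 times ND6 counts in control and 4.74 ± 0.429 times in LKO.

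Cytochrome c oxidase (complex IV) draws its 3 core subunits from mtDNA, and these were nearer to control than most ND genes. COX1 had 44486, 40011, 48898, 29229 and 38392 CPM in control against 39183, 33988, 24118, 36843 and 27210 CPM in LKO. The lowest control, control 4, lay below 3 LKO libraries. COX1 stood at -0.32 (SE 0.25; edgeR adjusted p = 0.473), and -0.08 with total counts. COX2 stood at -0.32 (5058 to 8910 and 4591 to 6966 CPM; -0.07 with total counts). COX3 stood at -0.26 (3951 to 7423 and 3898 to 6068 CPM; -0.01 with total counts). For COX2 and COX3 all 5 LKO libraries were below every control other than control 4, and control 4 itself was below 4 of the 5 LKO libraries.

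CYTB, the mtDNA subunit of complex III, had 12329, 12444, 14904, 9585 and 10344 CPM in control against 11657, 8177, 6777, 8044 and 7029.7 CPM in LKO. All LKO libraries but LKO 1 were below every control, and the log2 fold change was -0.52 (SE 0.22; edgeR adjusted p = 0.2). The subunits of the ATP synthase proton channel, ATP6 and ATP8, had log2 fold changes of -0.45 and -0.44 (edgeR adjusted p = 0.226 and 0.211). They are read from overlapping frames of 1 messenger, and ATP6 had 5083 to 8260 CPM in control against 3910 to 6574 CPM in LKO. The 3 genes whose stop codon is completed by poly(A) covered most of the range seen over the 13, from ND4 at -0.77 through CYTB at -0.52 to COX3 at -0.26.

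Overlap of the groups came mostly from LKO 1 among the ND genes and CYTB, and from control 4 among the COX genes. For 7 of the 13 (ND1, ND2, ND4, ND4L, ND5, ND6 and CYTB), LKO 1 was the only LKO library not below every control. Control 4 was the lowest control for 8 of the 13, and within the LKO range for 7. For ND2, ND4, ND4L, ND5 and ND6 it lay above every LKO library. In proportions of the 13 genes, ND messengers made up 28.3% in control 4, 20.4% in the lowest control and 16.8 to 24.4% in LKO. COX messengers made up 51.5% in control 4, 60.2% in the highest control and 56.6 to 65.3% in LKO. These proportions do not depend on scaling, and their group ranges overlapped for each of the 13 genes. COX1 alone made up 42.5 ± 1.97% in control and 44.9 ± 2.58% in LKO, and ND4 made up 6.16 ± 1.05% and 4.71 ± 0.910%.

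**Figure D3:**
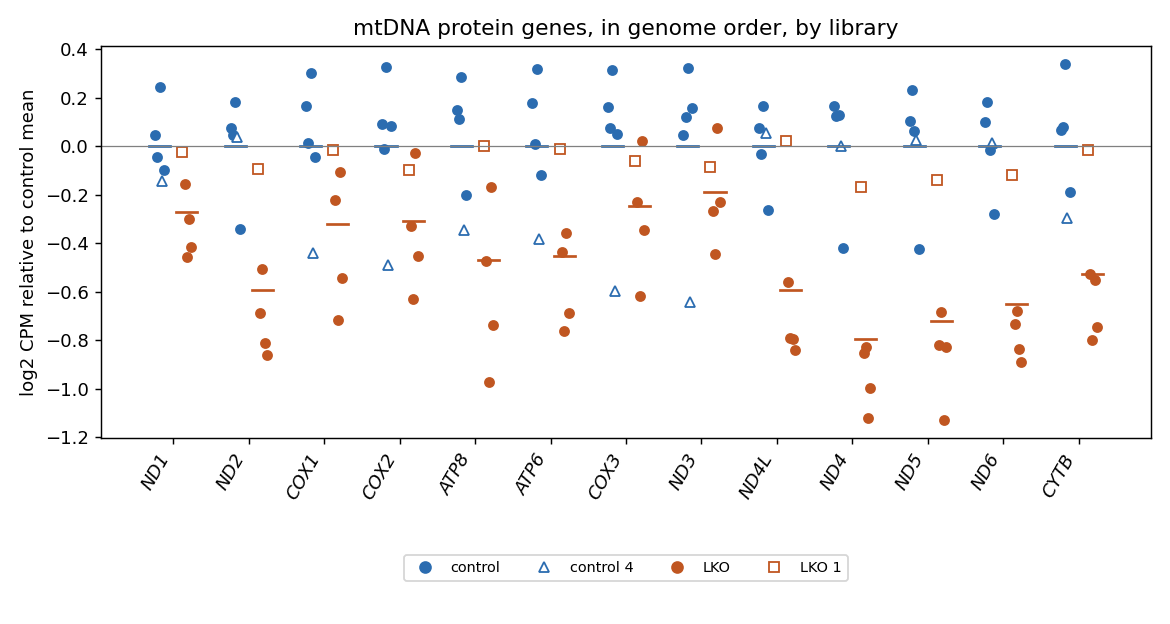
Log2 CPM of each mtDNA protein gene relative to the mean of the 5 controls (horizontal line at 0), in genome order; points are libraries, short bars are group means, the open triangle is control 4 and the open square LKO 1. LKO 1 lies with the controls for ND4 (5061 CPM) while the other LKO libraries lie below every control, and control 4 lies low for the COX genes and ND3.

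Markers of other cell types moved with the groups in the same libraries. Liver is a mixture, and in bulk RNA fewer cells of a type and less RNA per cell cannot be told apart. All 15 hepatocyte markers had negative log2 fold changes with TMM (median -0.35), and 11 of 15 were negative with total counts. Their summed level in control 4, 71325 CPM, was the lowest among controls, as was its sum over the 13 mtDNA genes. All 8 markers of recruited macrophages were higher in mean (median 1.27, 3 at an unadjusted edgeR p under 0.05), with a summed level of 83.2 to 451 CPM in control, control 4 being the highest, and 201 to 787 CPM in LKO. All 8 stellate cell and fibroblast markers were higher in mean (median 0.83; summed 378 to 852 CPM in control against 549.6 to 1209 CPM in LKO). Kupffer cell markers (5 of 7 higher) summed to 222 to 305 and 275 to 449 CPM, endothelial markers (6 of 6 higher) to 305 to 378 and 306 to 502 CPM, and lymphocyte markers (5 of 7 higher) to 21.8 to 53.5 and 31.5 to 68.6 CPM. Cholangiocyte markers (5 of 5 higher in mean) summed to 5.54 to 13.8 and 6.16 to 50.6 CPM. For each of these 5 genes, only LKO 3 and LKO 5 lay above every control. Neutrophil markers (3 of 3 tested higher) summed to 2.91 to 7.74 and 6.0 to 10.5 CPM. Cftr and Retnlg were at 0 in at least 1 library, and no other marker was. Erythroid genes summed to 179.9 to 302 and 115 to 249.6 CPM. The part of cell composition in the lower mtDNA transcript levels was not tested. The nuclear RNAs Malat1, Neat1 and Kcnq1ot1 summed to 7942 to 8672 CPM in control against 6558 to 7877 CPM in LKO (1 of the 3 had a positive fold change).

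Of the 25 nuclear factors, 24 had a negative log2 fold change with TMM, where 50.5% of all genes had. With total counts only 5 were negative (Polg2, Hsd17b10, Lrpprc, Fastkd1 and Tbrg4), where 16.5% of all genes were, so their common direction rests on the scaling. Their summed share of library counts was 0.0662 ± 0.00274% in control and 0.0684 ± 0.00151% in LKO. Control 4 was the lowest control for 20 of the 25 and lay within the LKO range for 18. Counts per library ran from 67 (Polg2) to 7700 (Lrpprc), so counting error is larger here than for mtDNA genes, whose smallest count was 5203 (ND4L).

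Replication of mtDNA needs the polymerase gamma subunits Polg and Polg2, the helicase Twnk and the single-strand binding protein Ssbp1. Polg, the catalytic subunit, was at 36.2 ± 7.34 CPM in control against 36.1 ± 5.58 CPM in LKO, with a log2 fold change of -0.00 (SE 0.15). Polg2, the accessory subunit, had 4.61, 4.6, 3.78, 2.26 and 3.37 CPM in control against 3.93, 3.9, 1.79, 2.57 and 2.61 CPM in LKO (log2 -0.33, SE 0.26; edgeR adjusted p = 0.455). The lowest library of each group was control 4 and LKO 3, and the ranges overlapped broadly. Twnk had 25.8, 24.8, 19.7, 18.7 and 22.3 CPM in control against 18.2, 19.1, 21.8, 23.1 and 19.9 CPM in LKO (-0.12, SE 0.11; edgeR adjusted p = 0.516). It overlaps Mrpl43 in the annotation. Ssbp1 stood at -0.05 (SE 0.14). With the title code as a covariate, which sets control 1 against LKO 1 and LKO 2, Ssbp1 stood at 0.30, Polg at -0.28, Polg2 at -0.23 and Twnk at -0.46. Polg2 stood at -0.20 without LKO 3.

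Transcription is carried out by the RNA polymerase Polrmt with Tfam, which also packages mtDNA, the initiation factor Tfb2m and the elongation factor Tefm. Polrmt had 17.3, 17.1, 15.7, 16.1 and 13.5 CPM in control. In LKO it had 15.1, 14.5, 12.4, 12.9 and 13.8 CPM. Of the 5 controls, 4 lay above every LKO library, and control 5 lay among them. The log2 fold change was -0.22 (SE 0.09; edgeR adjusted p = 0.201), and 0.02 with total counts. Tfam had 25.5, 23.9, 24.4, 20.7 and 25.3 CPM in control against 23.1, 22.8, 17.0, 24.4 and 21.7 CPM in LKO. On the log2 scale Tfam stood at -0.14 (SE 0.10; edgeR adjusted p = 0.44), at 0.10 with total counts and at -0.07 without LKO 3. Tfb2m and Tefm stood at -0.11 and -0.16. Tfb1m, an rRNA methyltransferase, stood at -0.12, Mterf3, a negative regulator of mtDNA transcription, at -0.15, and Mterf4, which acts in mitochondrial ribosome assembly, at 0.01, the only positive value of the 38. None of these 5 had an unadjusted p under 0.05, the smallest being 0.253 (Tefm).

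Cleavage of the precursors at transfer RNAs needs mitochondrial RNase P, which includes Trmt10c and Hsd17b10, and the RNase Z Elac2. Elac2 had 20.5, 20.8, 19.6, 17.5 and 20.01 CPM in control against 17.96, 19.4, 15.5, 18.2 and 18.6 CPM in LKO. All LKO libraries lay below every control but control 4, with a log2 fold change of -0.13 (SE 0.08; edgeR adjusted p = 0.341). Trmt10c had 14.3, 15.03, 16.97, 14.3 and 16.7 CPM in control against 11.8, 12.8, 14.6, 16.6 and 13.9 CPM in LKO (-0.15, SE 0.10; edgeR adjusted p = 0.394). Hsd17b10, which is also an enzyme of isoleucine breakdown, varied most among the nuclear factors. It had 153.8, 136.9, 110.8, 44.8 and 102.7 CPM in control against 116.2, 106.2, 35.3, 98.1 and 62.9 CPM in LKO. Control 4 and LKO 3 were the lowest of their groups, and the difference of -0.39 (SE 0.35) was about its standard error. It was -0.59 without control 4 and -0.20 without LKO 3.

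Stability and polyadenylation involve the RNA-binding pair Lrpprc and Slirp, the poly(A) polymerase Mtpap, the FASTK family and Grsf1. Fastkd1 had 14.9, 15.1, 15.9, 11.7 and 13.6 CPM in control. In LKO it had 12.8, 12.8, 10.03, 9.67 and 9.43 CPM. All LKO libraries were below every control but control 4, which lay inside the LKO range. The log2 fold change was -0.38 (SE 0.12; edgeR adjusted p = 0.137), and without control 4 it was -0.44 with an adjusted p of 0.0332. Lrpprc, which protects mtDNA messengers and promotes their polyadenylation, had 152, 136.5, 160.1, 124.0 and 179 CPM in control. Its LKO levels were 126.4, 124.7, 107, 135.0 and 125 CPM. Again only control 4 lay among the LKO libraries. On the log2 scale Lrpprc stood at -0.28 (SE 0.11; edgeR adjusted p = 0.174), and at -0.04 with total counts. Without control 4 it stood at -0.35, with an edgeR adjusted p of 0.0435.

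Slirp, the partner of Lrpprc, was low in count (94 to 155 per library) and stood at -0.18 (SE 0.13; edgeR adjusted p = 0.41). It overlaps Snw1 in the annotation, which had 43.9 CPM. Mtpap stood at -0.12 (18.01 ± 1.49 and 16.6 ± 0.543 CPM). Of the other FASTK family genes, Tbrg4 (FASTKD4) stood at -0.27, Fastkd5, which acts in the maturation of messengers that no transfer RNA flanks, at -0.20, Fastk at -0.10 and Fastkd2 at -0.02. Fastk stood at -0.24 without LKO 2 and at -0.02 without control 1, and Tbrg4 at -0.17 without LKO 3. Grsf1, the G-rich RNA binding protein, had 79.1 ± 9.78 CPM in control against 72.2 ± 9.43 CPM in LKO (-0.13, SE 0.12; edgeR adjusted p = 0.515; -0.20 without control 4 and -0.07 without LKO 3).

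Decay is the task of Supv3l1 and Pnpt1, the helicase and the ribonuclease of the mitochondrial degradosome. Supv3l1 had 18.5, 17.5, 18.1, 13.9 and 19.1 CPM in control against 16.5, 15.6, 12.9, 15.6 and 16.7 CPM in LKO. All LKO libraries were below every control but control 4, and the log2 fold change was -0.17 (SE 0.10; edgeR adjusted p = 0.345). Pnpt1 had 29.4, 28.4, 33.0, 27.7 and 37.2 CPM in control against 28.4, 27.9, 31.4, 32.9 and 25.9 CPM in LKO (-0.09, SE 0.10; edgeR adjusted p = 0.622). With total counts both were positive (0.08 and 0.16).

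**Figure D4:**
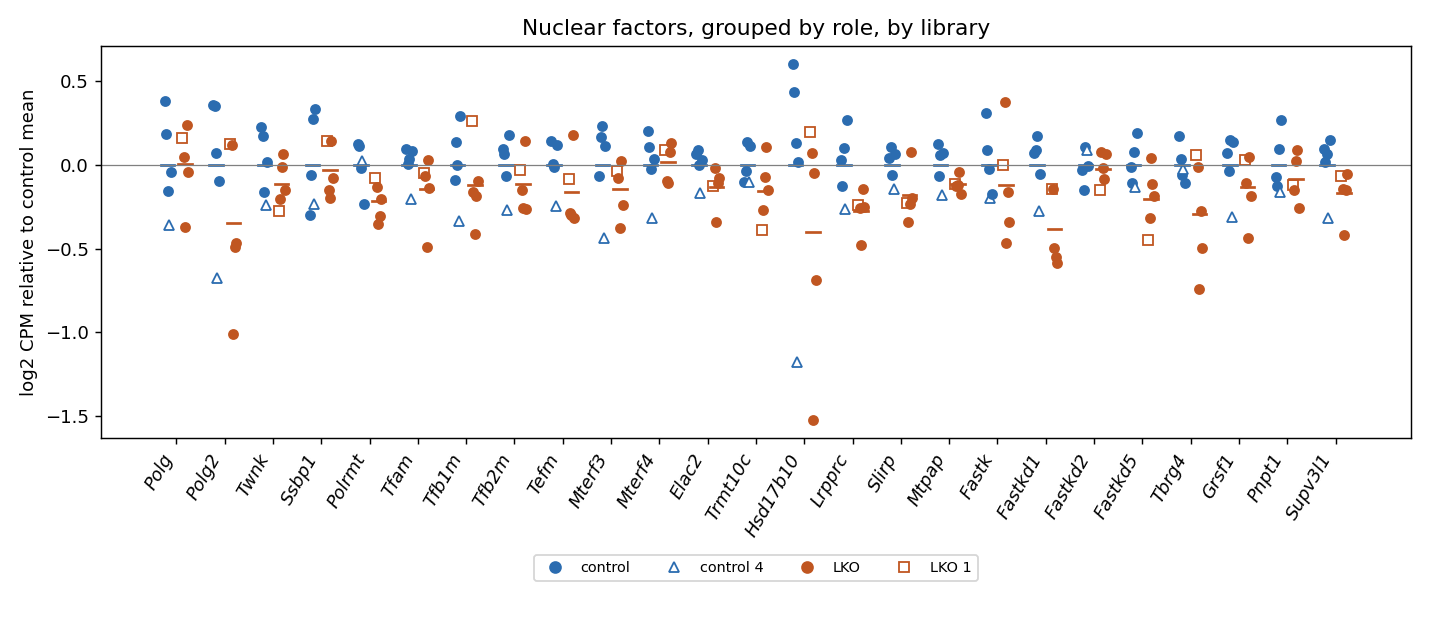
Log2 CPM of each nuclear factor relative to the mean of the 5 controls, ordered by role (replication, transcription, cleavage, stability, decay); points are libraries, short bars are group means, the open triangle is control 4 and the open square LKO 1. Group ranges overlap for all 25 genes, and control 4 is the lowest control for 20 of them.

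**Figure D5:**
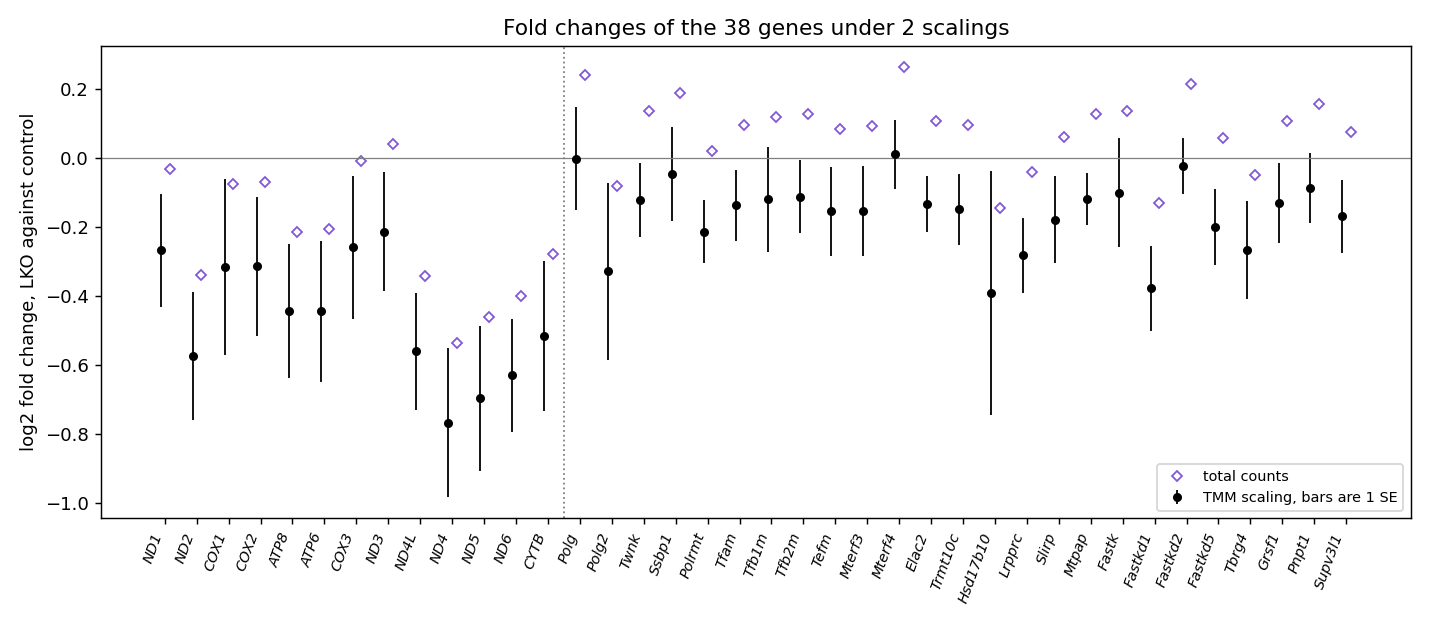
Log2 fold change of LKO against control for the 38 genes, mtDNA genes left of the dotted line; black points are TMM-scaled edgeR estimates with bars of 1 SE, open diamonds the estimates with total counts. The mtDNA genes stay below 0 under both scalings except ND3 (0.04 with total counts). With total counts 20 of the 25 nuclear factors lie above 0, as do 83.5% of all genes tested.

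Promoters of the nuclear factors are shown because many genes of this system are known to be regulated by ETS family factors (GABP, also called NRF-2) and by NRF1. RefSeq promoter sequences (GRCm38.p6, 250 bases before to 50 after the start) were found for 23 of the 25. The ETS core CCGGAAG, on either strand, was in a promoter of 14 of the 23 (60.9%), where 9.93% of all 27025 genes with a sequence had it. The 14 included Tfam, Polrmt, Tefm, Polg, Polg2, Twnk, Ssbp1, Slirp, Grsf1 and Tbrg4. The NRF1 core (GCGCA and GCGC with 1 base of any kind between them, either strand) was in 1 of the 23 (Polrmt, 4.35%), where 5.19% of all genes had it. These matches are letters in a window, not bound sites. The shares of all genes were not limited to genes tested in liver, and a share among those was not computed. The median log2 fold change was -0.14 (range -0.33 to 0.01) over the 14 with an ETS match and -0.13 (-0.39 to -0.02) over the 9 without. Gabpa, the DNA-binding subunit of GABP, stood at -0.17 (SE 0.09; edgeR adjusted p = 0.294), and 0.07 with total counts. Matches are in capitals in the promoters of Tfam (chr10:71237995-71238294, minus strand) and of Polrmt (chr10:79746532-79746831, minus strand), each printed in the direction of transcription; in Polrmt the pair of NRF1 matches overlap each other.
Tfam: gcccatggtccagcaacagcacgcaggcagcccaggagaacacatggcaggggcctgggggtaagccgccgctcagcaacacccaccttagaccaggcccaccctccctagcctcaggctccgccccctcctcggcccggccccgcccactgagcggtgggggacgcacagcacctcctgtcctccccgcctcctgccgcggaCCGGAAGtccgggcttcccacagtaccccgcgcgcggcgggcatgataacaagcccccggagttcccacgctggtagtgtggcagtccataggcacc
Polrmt: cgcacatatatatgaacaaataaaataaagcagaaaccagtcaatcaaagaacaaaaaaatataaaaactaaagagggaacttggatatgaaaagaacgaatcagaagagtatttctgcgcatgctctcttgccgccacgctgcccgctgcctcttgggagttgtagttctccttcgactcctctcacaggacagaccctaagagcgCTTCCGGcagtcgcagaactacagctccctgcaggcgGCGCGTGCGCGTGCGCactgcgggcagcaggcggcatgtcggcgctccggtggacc

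Further genes of the same system were examined from lists, 264 of them tested. None passed an adjusted p under 0.05 (edgeR), 10 were lower (3.79%) and 4 higher at an unadjusted p under 0.05, below the shares of all genes at that level (9.5% lower and 12.8% higher), and their median log2 fold change was -0.07 (0.17 with total counts). Of 81 mitochondrial ribosomal protein genes, 3 had an unadjusted p under 0.05, all lower, namely Mrps10 (-0.32), Mrpl22 (-0.18) and Mrpl3 (-0.22). The median of this list was -0.07. The nuclear subunits of complexes I, III, IV and V, which assemble with the products of the 13 mtDNA genes, had a median of -0.08, and 0 of 69 had an unadjusted p under 0.05. The smallest p was that of Ndufv3, at -0.23 (edgeR adjusted p = 0.233). Succinate dehydrogenase, the complex with no mtDNA subunit, stood at -0.15 (Sdhb), -0.11 (Sdhc) and -0.07 (Sdha). Genes of general mitochondrial content, such as the citrate synthase gene Cs and the porin Vdac1, had a median of -0.06, and 0 of 14 had an unadjusted p under 0.05. The mtDNA transcripts thus stood lower than the nuclear partners of the same complexes, with medians of -0.45 and -0.08; this difference was described and not tested.

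Mitochondrial aminoacyl-tRNA synthetase genes had a median of -0.11, with Nars2 (-0.52) and Lars2 (-0.64) at an unadjusted p under 0.05 among 17 (11.8%, near the 9.5% of all genes that were lower at that level). Translation factor genes had a median of -0.06, with the initiation factor Mtif2 (-0.22) and Taco1, an activator of COX1 translation (-0.28), under that level among 13 (15.4%). Among 24 genes of RNA modification, Gtpbp3, which modifies transfer RNA wobble bases, was higher in every LKO library (5.18 to 6.04 CPM) than in any control (3.4 to 4.39 CPM). Its log2 fold change was 0.55 (SE 0.11; edgeR adjusted p = 0.0809), with an edgeR adjusted p of 0.0138 without control 4. Of all genes, 1.72% had ranges apart as higher, and 10.2% were called as higher without control 4. Mettl8 stood at -0.42 (edgeR adjusted p = 0.138). None of 13 other RNA handling genes, among them the RNase P nuclease Prorp (-0.15), had an unadjusted p under 0.05.

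Of 20 genes of mtDNA upkeep and nucleotide supply, 3 were higher and 1 lower (5.0%) at an unadjusted p under 0.05, where 12.8% of all genes were higher and 9.5% lower, so these counts do not set the list apart. The pyrimidine nucleotide carriers Slc25a33 and Slc25a36 stood at 0.46 and 0.63 (edgeR adjusted p = 0.147 and 0.157), the protease gene Lonp1 at 0.17, and the nuclease and helicase gene Dna2 at -0.25. Of 10 regulators of mitochondrial biogenesis, 9 were negative with TMM and 3 with total counts, where 50.5% and 16.5% of all genes were. Sirt1, a deacetylase that acts on PGC-1alpha, lay between 12.6 and 14.8 CPM in LKO and between 15.9 and 19.1 CPM in control, with no overlap. Its log2 fold change was -0.33 (SE 0.08; edgeR adjusted p = 0.0999), with an edgeR adjusted p of 0.0259 without control 4. Of all genes, 2.23% had ranges apart as lower, and 4.75% were called as lower without control 4. The coactivator genes Ppargc1a and Ppargc1b stood at -0.21 and -0.44 (edgeR adjusted p = 0.312 and 0.351).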

How the data were processed

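Bulk RNA of 10 livers was sequenced, 5 control and 5 LKO. Per the labels' protocols, ribosomal RNA was removed with FastSelect and stranded Kapa Hyper libraries were read from 1 end for 101 cycles. The deposited file holds whole-number counts per gene and library, not normalized. Tools listed per the submitters' processing notes are bcl2fastq 2.20 and DESeq2, and the build is GRCm39. Not given in the sources used here: aligner, counting tool, strand setting, annotation. Symbols came from a RefSeq table of GRCm38.p6, used for names and neighbours, which matched 25275 of 27179 genes. The remaining genes, with 0.693% of counts, were kept.

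All genes were fitted in R 4.3.3 with edgeR 4.0.16 (filterByExpr, TMM, quasi-likelihood F test with the legacy option, two-sided, genotype the only term) and adjusted by Benjamini-Hochberg, threshold 0.05. CPM values are TMM-scaled, and standard errors derive from the fold change and F statistic. Lengths and messenger sequences came from GENCODE M21. Members and lists were chosen with earlier results of these data known, and no list was tested. Of each pathway list up to 3 genes with the smallest p and a mean of at least 1 CPM were eligible to be named with values. Cs, Vdac1, Lonp1, Ppargc1a and Ppargc1b were named after their values were seen. Alternatives were other scalings, filters, DESeq2 1.42.0, limma 3.58.1 voom with quality weights, a block for replicate number, a covariate for title code, and omission of libraries; a share of counts without mitochondrial rRNA was added after seeing the data. On simulated counts (15077 genes) 72 of 99 genes with a 2-fold change and 93 of 99 with a 4-fold change were recovered, with 8 false calls. Recovery in the measured libraries, where calls went from 10 to 2296 without control 4, was not tested. No libraries of a group agreed within sampling noise (lowest chi-square per degree of freedom 34.7). A count of 3 equals 0.0698 to 0.113 CPM. The labels do not say more of the mice, so p-values reflect only the spread among these samples. Figures were drawn with matplotlib 3.10.9.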

Additional observations from a re-analysis of the deposited data

Results flagged for a closer look

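In LKO 1, 4 mtDNA transcripts stood far above the other 4 LKO libraries, with a gap to the nearest of over 0.71 of the range of the group (Dixon's criterion for 5 samples). ND4 was at 5061 CPM (others 2616 to 3202), ND4L at 276.9 CPM (152 to 185), ND6 at 840.5 CPM (494 to 571) and CYTB at 11657 CPM (6777 to 8177). Chance flags about 1 in 20 groups, and 80 groups were examined, with 4 flags. The genes lie on 1 molecule and are read from shared precursors, so the flags are not independent of each other.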

How the results depend on the processing

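The number of genes called over the whole table, 10, was 2 with the replicate block, 0 with the title code as a covariate, 31 with no filter, 20 with at least 1 CPM in 5 libraries, 1186 by DESeq2, 2460 by limma voom, 2363 without control 4 and LKO 3 together, and 2 to 2296 (without control 4) with 1 library left out; it was 86 without LKO 1, 5 without control 2 or LKO 2, 4 without control 5, 11 without LKO 3 and 2 without any 1 of control 1, control 3, LKO 4 or LKO 5. The number of the 38 genes called, 0, was 6 by DESeq2, 10 by limma voom, 3 without control 4 and LKO 3 together, and 0 to 4 (without control 4; 2 without LKO 1) with 1 library left out. The number with an unadjusted p under 0.05, 10, was 5 with total counts, 1 with the title code, 18 by limma voom, 16 without control 4 and LKO 3, and 6 (without control 3) to 15 (without control 4) with 1 library left out; with the replicate block it was 8. The replicate numbers do not pair the samples, since deviations of same-numbered libraries correlated at -0.399 to 0.419, and number 1 was the only number whose own pair matched best.

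With total counts 20 genes became positive on the log2 scale, namely ND3 (0.040), Polg (0.24), Twnk (0.13), Ssbp1 (0.19), Polrmt (0.019), Tfam (0.10), Tfb1m (0.12), Tfb2m (0.13), Tefm (0.082), Mterf3 (0.092), Elac2 (0.11), Trmt10c (0.095), Slirp (0.061), Mtpap (0.13), Fastk (0.14), Fastkd2 (0.21), Fastkd5 (0.055), Grsf1 (0.11), Pnpt1 (0.16) and Supv3l1 (0.075). Other reversals were those of Polg (0.026) and Fastkd2 (0.0063) with the upper quartile, Polg with no filter (0.00062), with 1 CPM in 5 libraries (0.0081), with the replicate block (0.0034) and by limma voom (0.0084), Mterf4 (-0.026) and Fastkd2 (0.0033) by limma voom, Mterf4 (-0.035) without control 4 and LKO 3, and Ssbp1 (0.30), Tfb1m (0.15), Mterf3 (0.0085) and Mterf4 (-0.20) with the title code. With 1 library left out, Polg ranged from -0.086 to 0.10, Ssbp1 from -0.12 to 0.039, Mterf4 from -0.063 to 0.059 and Fastkd2 from -0.062 to 0.0050. Without changing sign, others moved by over 1.5 times, to -0.25 without control 4 and -0.10 without control 3 (Mterf3), -0.07 without control 1 (Twnk), -0.26 without LKO 4 (Tefm), -0.19 without LKO 4 and -0.07 without control 5 (Tfb2m), -0.23 without LKO 1 and -0.04 without control 5 (Tfb1m), -0.23 without LKO 4 and -0.10 without LKO 1 (Trmt10c), and -0.14 without LKO 4 and -0.02 without control 5 (Pnpt1). The cause of these changes was not tested, except that total counts leave the median of all genes at 0.235. Fold changes with the title code rest on control 1 against LKO 1 and LKO 2. The difference in mtDNA share of counts, -0.895 percentage points, was -0.893 over filtered genes, -1.02 without mitochondrial rRNA and -1.18 to -0.631 with 1 library left out; for ND6 over heavy strand genes the log2 difference of -0.25 ran from -0.33 to -0.17. Depth limits most the nuclear genes of low count, such as Polg2 and Slirp.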
